A study of Mus musculus with 12 samples.

Results

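The cytosolic ribosomal protein genes are the genes of the protein subunits of the ribosome that translates messenger RNA in the cytoplasm. Of 24346 rows in the gene table, 76 had a symbol made of Rpl or Rps and a number, with an optional a or x, or were Rplp0, Rplp1, Rplp2 or Rpsa. All 76 also had a mean of at least 10 counts over the libraries, so the mean removed none. They comprise 46 genes of the large subunit and 30 genes of the small subunit, and all 76 passed the filter on low counts and were tested. The lowest mean counts among them were those of Rpl26 (28.1), Rpl30 (54.1) and Rps27 (66.1), and the rows with like symbols nearest to the minimum outside were Rps6ka6 (9.60), Rpl37rt (8.76) and Rpl14-ps1 (7.77), which the symbol rule does not take. Rps3a1 and Fau, which also encode ribosomal proteins, fall outside the symbol rule.

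RNA was measured in 12 libraries from the midbrain of C57BL/6 mice, with 3 libraries in each of 4 groups. The mice received either saline or preformed fibrils of the G51D form of α-synuclein (20 µg at 5 µg/µL) into the substantia nigra of both hemispheres, and the tissue was taken 7 or 12 weeks later. Cells positive for the fluorescent reporter hKO1, given in the labels as a mark of dopaminergic neurons, were sorted into TRIzol LS, and the RNA was amplified with the SMARTer Ultra-Low kit. What drives hKO1, the age of the mice and how many mice a library stands for are not given in the sources used here, so p-values measure the spread between these libraries. Assigned fragments ranged from 2506730 to 5533324 per library. Fragments were found for 17409 genes in replicate 2 of the 12-week synuclein group and for 19960 to 21135 in each of the other 11 libraries. The sorted material held more than neurons: markers of oligodendrocytes summed to 19917 to 54776 CPM (counts scaled by TMM to a common library total), those of endothelial cells to 13665 to 36192 CPM and those of dopaminergic neurons to 600 to 2558 CPM. In such bulk samples fewer cells of a type and less RNA per cell cannot be told apart.

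Nearly every ribosomal protein is present in a single copy per ribosome, and cells keep the messenger RNAs of these proteins at matched, high levels. In mammals these messenger RNAs begin with a run of pyrimidines at the 5′ end, the 5′ terminal oligopyrimidine or TOP motif, through which the kinase mTOR sets how strongly they are translated. Neurons also carry these messenger RNAs into dendrites and axons, and α-synuclein aggregates have been studied for effects on translation.

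Promoter windows of RefSeq on GRCm38.p6 were found for 56 of the 76 genes, in 66 windows of 300 bases. The bases around the annotated start are shown for the 6 genes with the longest pyrimidine run there, as examples of such runs. They are also shown for Rps7, Rps4x and Rpl26, which are described further on. Each line holds 15 bases before the start and 15 bases from it onward, 5′ to 3′ on the strand of the gene, and capitals mark the longest unbroken run of C and T.
Rpl7a, chr2:26910792-26910821, plus strand: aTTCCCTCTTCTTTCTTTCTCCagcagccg
Rpl27a, chr7:109519180-109519209, plus strand: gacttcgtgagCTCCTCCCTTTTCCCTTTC
Rpl34, chr3:130730323-130730352, minus strand: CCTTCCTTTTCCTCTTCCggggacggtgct
Rpl35, chr2:39005117-39005146, minus strand: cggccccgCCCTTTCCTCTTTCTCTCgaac
Rpl15, chr14:18270972-18271001, minus strand: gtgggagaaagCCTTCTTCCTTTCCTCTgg
Rpl14, chr9:120571502-120571531, plus strand: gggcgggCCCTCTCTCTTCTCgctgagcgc
Rps7, chr12:28635939-28635968, minus strand: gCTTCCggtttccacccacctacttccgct
Rps4x, chrX:102189377-102189406, minus strand: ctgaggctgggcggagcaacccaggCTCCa
Rpl26, chr11:68901551-68901580, plus strand: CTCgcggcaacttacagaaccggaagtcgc

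Within the bases shown, the longest run had 21 bases in Rpl7a and 14 in Rpl14, and both include the start. It had 5 bases in Rps7, 4 in Rps4x and 3 in Rpl26. The marked runs of Rps7 and Rpl26 end before the start and that of Rps4x begins after it, so none is a run at the start. The runs of Rpl27a, Rpl34 and Rpl26 reach the edge of the bases shown and can be longer. A run of at least 8 pyrimidines lay in 26 of the 66 windows of the family (39.4%, 25 genes) and in 12.0% of all 32851 promoter windows of the same length. Over the full 300 bases and both strands, CCGGAAGT, the core bound by ETS factors such as GABP, was found in 16.7% of the family's windows and 3.89% of all. AAGATGGC, the core of YY1 sites, was found in 10.6% and 2.75%. TATAAA, the TATA box, was found in 9.09% and 13.6%. These are matches of letters and not measured sites, and the windows start from annotated starts, which can lie away from the start used. The Rps4x window lies outside the deposited model of that gene (chrX:102184943-102188371), so its run is not at the start of that model. The Rpl34 window lies inside the deposited model, which ends at 130730398.

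Per length, the genes spanned a wide range of FPKM, fragments scaled to the length of the gene model and the size of the library. The highest mean over the 12 libraries was 2513 FPKM for Rpl41, a very short protein of the large subunit, followed by 1772 FPKM for Rpl38 and 1397 FPKM for Rps29. The lowest were 18.4 FPKM for Rps15a, 23.5 FPKM for Rpl26 and 40.8 FPKM for Rpl22. This range depends on the lengths taken for the gene models and is not a range of transcript levels alone. Rps15a and Rps28 had nearly equal means of 93.9 and 94.6 CPM, but 18.4 and 797 FPKM. The FPKM of Rpl26, Rpl30, Rpl34 and Rps27 depend on how fragments were divided with the row of a near-identical copy at the same locus, as described below. Of the other 72 genes, 29 have further rows at their deposited locus, such as small nucleolar RNAs or neighbouring genes, Rpl38 among them. The steadiest genes over the 12 libraries were Rps2, on the messenger RNA entry side of the small subunit, with an SD of 0.10 in log2 CPM, and Rpl6 and Rpsa with 0.13 each. Rpsa, also known as the laminin receptor, had 554, 494 and 518 CPM in saline and 520, 468 and 464 CPM in synuclein at 7 weeks, and 544, 529 and 472 CPM and 429, 593 and 517 CPM at 12 weeks. Its 4 groups overlapped throughout.

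The summed level of the family varied between the libraries of each group. In saline at 7 weeks the 76 genes summed to 19290, 18599 and 22871 CPM in replicates 1, 2 and 3, and in synuclein at 7 weeks to 19033, 17940 and 16605 CPM. At 12 weeks the sums were 17654, 20099 and 18513 CPM in saline and 17102, 23397 and 20128 CPM in synuclein. Replicate 3 of saline at 7 weeks and replicate 2 of synuclein at 12 weeks stood above the other 10 libraries, and replicate 3 of synuclein at 7 weeks and replicate 1 of synuclein at 12 weeks were the lowest. The group means ± SD (n = 3) were 20253 ± 2293 CPM for saline and 17859 ± 1216 CPM for synuclein at 7 weeks, and 18755 ± 1240 CPM for saline and 20209 ± 3149 CPM for synuclein at 12 weeks. The treatments overlapped at both times, and at 7 weeks replicate 1 of synuclein (19033 CPM) lay above replicate 2 of saline (18599 CPM).

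**Figure D1:**
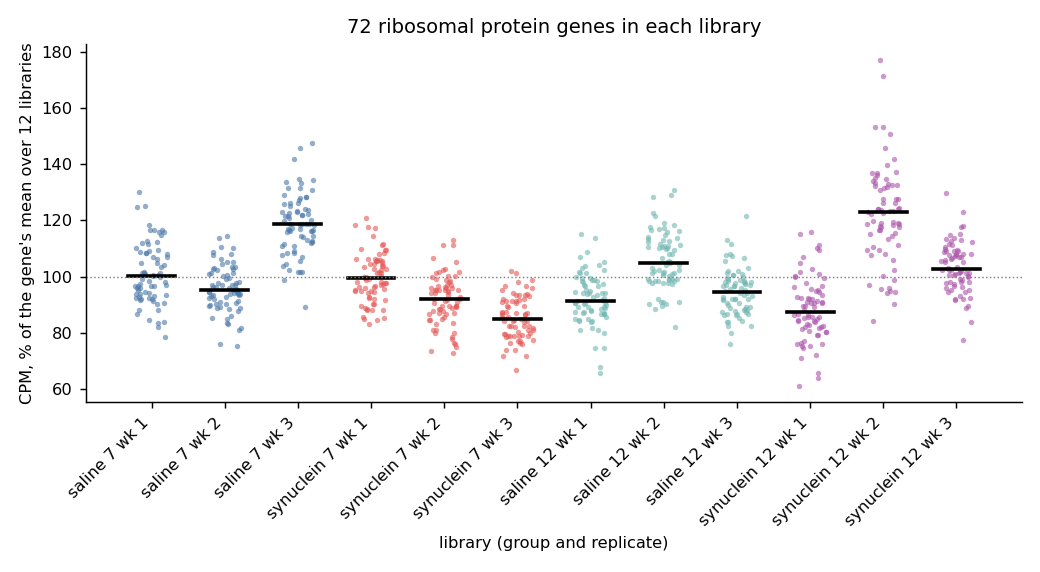
Level in each library of the 72 ribosomal protein genes that share no locus with a near-identical copy, as CPM in percent of the gene's own mean over the 12 libraries, with 1 point per gene and the median as a bar. The points of saline 7 weeks replicate 3 and synuclein 12 weeks replicate 2 lie mostly above 100% and those of synuclein 7 weeks replicate 3 mostly below.

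The genes moved together across libraries. In saline replicate 3 at 7 weeks 72 of the 76 genes lay above their own mean over the 12 libraries, and in synuclein replicate 2 at 12 weeks 66 did. In synuclein replicate 3 at 7 weeks only 4 did, and in synuclein replicate 1 at 12 weeks 15. Replicate 2 of synuclein at 12 weeks held the highest value of 37 genes and replicate 3 of saline at 7 weeks that of 27, and the lowest values were in replicate 3 of synuclein at 7 weeks for 31 genes and in replicate 1 of synuclein at 12 weeks for 22. The balance of the subunits moved little: small subunit genes summed to 0.612 to 0.671 of the large subunit genes, with the highest ratio in replicate 2 of synuclein at 12 weeks.

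Over the 12 libraries the median Pearson correlation of log2 CPM between pairs of the 72 genes that share no locus with a near-identical copy was 0.57, and 0.58 on deviations from the group means. Over pairs of all 17380 genes tested it was 0.01. These points share 12 libraries and their depth, so the values describe these libraries. Rps18, of the small subunit head, followed the mean of the other genes most closely (r = 0.94), with 315, 283 and 383 CPM in saline and 276, 279 and 271 CPM in synuclein at 7 weeks, and 293, 346 and 299 CPM and 264, 413 and 316 CPM at 12 weeks. Its highest library was replicate 2 of synuclein at 12 weeks and its lowest replicate 1 of the same group. Rpl7a, which has the longest pyrimidine run above, followed the mean least (r = 0.13), and Rpl10 was next (r = 0.28). Rpl10, an X-linked protein that joins the large subunit late, had 411, 374 and 360 CPM in saline and 369, 336 and 354 CPM in synuclein at 7 weeks, and 345, 382 and 309 CPM and 261, 331 and 330 CPM at 12 weeks. It was not high in either library in which most of the family was high.

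At 7 weeks 72 of the 76 genes had a log2 fold of synuclein against saline below 0 (94.7%, against 48.8% of all genes tested). The median was −0.18, against 0.01 over all genes, and the quartiles were −0.25 and −0.11. None passed an adjusted p of 0.05 in edgeR's quasi-likelihood test (background 0%), and none reached an unadjusted p under 0.05 (background 1.64%). In 12 genes every synuclein library was below every saline library (15.8%, background 3.75%): Rpl3, Rpl7, Rpl15, Rpl23, Rpl31, Rplp2, Rps4x, Rps7, Rps10, Rps14, Rps15a and Rps18, a list made after the values were seen. Large and small subunit genes had medians of −0.18 each.

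Rps7, a small subunit protein mutated in some patients with Diamond-Blackfan anaemia, had 155, 189 and 191 CPM in saline and 141, 126 and 131 CPM in synuclein at 7 weeks. The groups did not overlap, with a log2 fold of −0.43 ± 0.23 (edgeR, SE, adjusted p = 1). Rpl37 had 168, 182 and 210 CPM in saline and 169, 125 and 115 CPM in synuclein, with a log2 fold of −0.45 ± 0.25. Replicate 1 of synuclein overlapped with saline. Rps4x, the X-linked member of a pair that has a Y-linked counterpart in primates, had 313, 323 and 340 CPM in saline and 250, 279 and 233 CPM in synuclein, without overlap and with a log2 fold of −0.36 ± 0.21. Rpl15 had 356, 328 and 425 CPM in saline and 307, 267 and 290 CPM in synuclein, without overlap and with a log2 fold of −0.36 ± 0.22. Rpl35, at the exit of the peptide tunnel, had a log2 fold of −0.34 ± 0.22. These 5 sizes were within 2 SE of 0, with SE that draw partly on a spread shared across genes. Without replicate 3 of saline the median of the family was −0.07, with 51 of 76 genes below 0.

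At 12 weeks the values lay mostly on the other side. The log2 fold of synuclein against saline was above 0 in 58 of 76 genes (76.3%, against 47.3% of all genes), with a median of 0.12 against −0.04 over all genes. None passed an adjusted p of 0.05 (background 0%), and Rpl26 alone reached an unadjusted p under 0.05 (background 5.57%). In 4 genes every synuclein library was above every saline library (5.26%, background 4.01%), among them Rpl18, Rpl26 and Rps16. That share is near the background. Rps7 had 151, 168 and 143 CPM in saline and 167, 253 and 167 CPM in synuclein at 12 weeks, with a log2 fold of 0.35 ± 0.23, and replicate 2 of synuclein stood above the other 5 libraries. Rps16 had 150, 186 and 173 CPM in saline and 212, 217 and 204 CPM in synuclein, without overlap and with a log2 fold of 0.32 ± 0.22. Rps15a had 88.5, 106 and 77.5 CPM in saline and 87.7, 161 and 96.1 CPM in synuclein, with a log2 fold of 0.34 ± 0.26. Without replicate 2 of synuclein the median of the family was 0.0051, with 37 of 76 genes below 0, and without replicate 1 of synuclein it was 0.29.

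The difference between the synuclein effects at the 2 times was above 0 in 66 of 76 genes (86.8%, against 47.4% of all genes), with a median of 0.31 against −0.05 over all genes. None passed an adjusted p of 0.05 in this interaction test (background 0%), and Rpl26 and Rps7 reached an unadjusted p under 0.05 (background 4.49%). Rps7 gave 0.77 ± 0.32 (edgeR, adjusted p = 0.95), Rps15a 0.70 ± 0.37, Rpl37 0.64 ± 0.35 and Rps26 0.62 ± 0.34. Rpl30 gave the lowest value, −1.03 ± 0.72, and shares its locus with the row of a copy. The median ranged from 0.21 without replicate 3 of saline at 7 weeks to 0.52 without replicate 1 of synuclein at 12 weeks.

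The comparisons of time within a treatment use the same libraries again. In saline, 66 of 76 genes had a log2 value of 12 against 7 weeks below 0 (86.8%, against 49.0% of all genes), with a median of −0.11. None passed an adjusted p of 0.05 (background 0%), 2 reached an unadjusted p under 0.05, Rpl26 and Rps27 (background 7.42%), and in 8 genes every 12-week library was below every 7-week library (10.5%, background 7.83%). Without replicate 3 of saline at 7 weeks the median was 0.01 and 34 genes were below 0. In synuclein, 66 of 76 genes had a value above 0 (86.8%, against 45.8% of all genes), with a median of 0.19. None passed an adjusted p of 0.05 (background 0%), 3 reached an unadjusted p under 0.05, Rps7, Rps15a and Rps27 (background 7.58%), and in 9 genes every 12-week library was above every 7-week library (11.8%, background 5.13%). Rps7 gave 0.56 ± 0.23 and Rps15a 0.63 ± 0.26, both without overlap. Rpl5, which with Rpl11 and the 5S ribosomal RNA holds Mdm2 and so bears on p53, had 289, 309 and 233 CPM at 7 weeks and 335, 383 and 338 CPM at 12 weeks in synuclein, without overlap and with a log2 fold of 0.35 ± 0.21. Rpl10 went the other way, with every 12-week synuclein library below every 7-week one and a log2 fold of −0.20 ± 0.20.

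**Figure D2:**
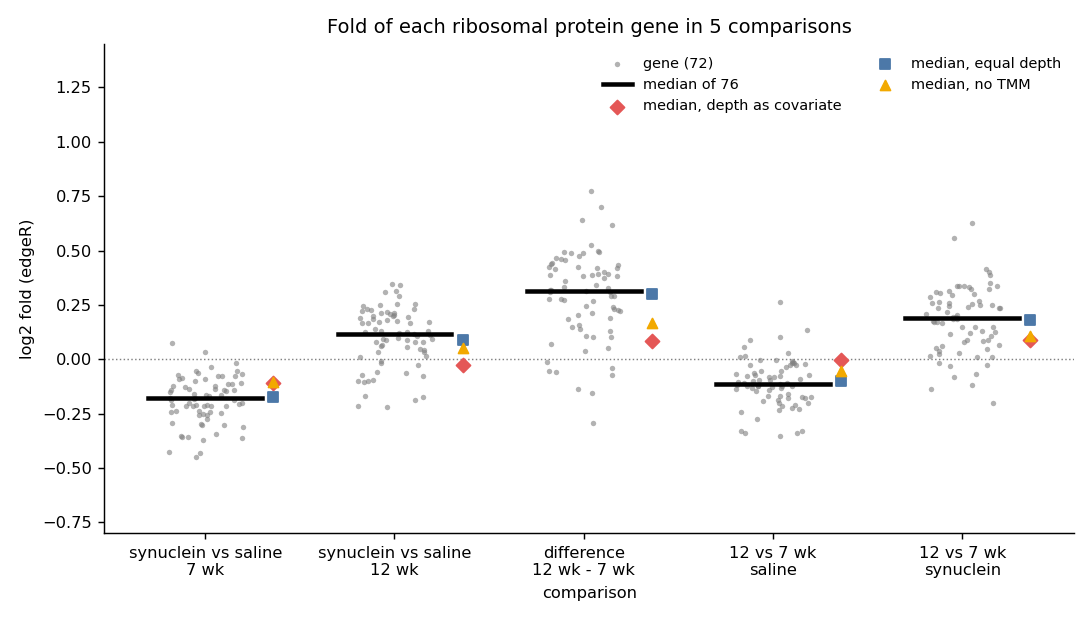
Log2 fold in 5 comparisons (edgeR), with 1 grey point for each of the 72 ribosomal protein genes that share no locus with a near-identical copy and a black bar for the median of all 76. Coloured markers give the median with library depth as a covariate (diamond), with all libraries thinned to equal depth (square) and without TMM scaling (triangle), and the diamond of the difference between the times lies at 0.085, against a bar at 0.31.

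Averaged over both treatments, 46 of 76 genes had a log2 value of 12 against 7 weeks above 0 (60.5%, against 47.0% of all genes), with a median of 0.03. Rpl26 was the 1 gene of the family that passed an adjusted p of 0.05 (edgeR, adjusted p = 0.024, background 0.834%), and Rps27 missed it (adjusted p = 0.052). Both were also the 2 genes at an unadjusted p under 0.05 (background 9.82%). Averaged over both times, 58 of 76 genes had a log2 value of synuclein against saline below 0 (76.3%, against 51.7% of all genes), with a median of −0.04, none passed an adjusted p of 0.05 (background 0%) and Rpl26 alone reached an unadjusted p under 0.05 (background 2.48%). Without replicate 1 of synuclein at 12 weeks that median was 0.03 and 28 genes were below 0.

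Rpl26, a protein of the large subunit that also binds the messenger RNA of p53, and Rps27, a zinc finger protein of the small subunit, each share a locus in the deposited table with the row of a copy. Rpl26 (chr11:68901566-68904534) is listed with Gm15772, and Rps27 (chr3:90212667-90213648) with Rps27rt. GENCODE M21 and RefSeq place these copies elsewhere, Gm15772 on chromosome 5, where GENCODE calls it a processed pseudogene, and Rps27rt on chromosome 9 as a protein-coding gene. Rpl30 is listed with Gm12191 and Rpl34 with Rpl34-ps1 in the same way. In GENCODE M21 transcripts the coding sequences matched over 436 of 438 bases for Rpl26 and Gm15772, 347 of 348 for Rpl30 and Gm12191, 352 of 354 for Rpl34 and Rpl34-ps1 and 255 of 255 for Rps27 and Rps27rt. A stretch of 30 coding bases around the first mismatch, bases 162 to 191 counted from the A of the start codon as 1, is shown for the first pair to show how few bases tell them apart, and the capital marks the mismatch.
Rpl26: agttcaggttgttcgCggacactacaaagg
Gm15772: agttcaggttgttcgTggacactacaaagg

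Most fragments at these loci were given to the copy, and the fragments given here are rounded to whole numbers. Rpl26 had 16, 17 and 83 fragments in saline and 33, 131 and 18 in synuclein at 7 weeks, and 0, 0 and 0 in saline and 16, 51 and 32 in synuclein at 12 weeks. The 3 saline libraries at 12 weeks were at 0, while Gm15772 had 522 to 1209 fragments in every library. Against a floor of 3 fragments per library (0.978 CPM on average), the mean of the Rpl26 row was at least 8.81-fold higher in saline at 7 weeks (8.61 ± 6.71 CPM, n = 3) and at least 8.08-fold higher in synuclein at 12 weeks (7.90 ± 3.09 CPM, n = 3) than in saline at 12 weeks. The saline libraries at 7 weeks had 4.87, 4.62 and 16.4 CPM. These bounds describe the row as its fragments were divided with Gm15772, and not the level of the gene. The fitted log2 value of −4.45 ± 0.80 over both treatments is no bound, since it depends on how the 0 counts were treated.

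With each gene summed with its copy, Rpl26 was no longer called. Rpl26 and Gm15772 together had 212, 197 and 250 CPM in saline and 237, 194 and 200 CPM in synuclein at 7 weeks, and 225, 245 and 212 CPM and 174, 266 and 232 CPM at 12 weeks, so the libraries with 0 fragments of Rpl26 lay among the others. The log2 value of 12 against 7 weeks over both treatments was 0.07 ± 0.16 for the summed row (edgeR, adjusted p = 0.96). Rps27 had 11, 11 and 31 fragments in saline and 24, 10 and 3 in synuclein at 7 weeks, and 206, 10 and 218 in saline and 206, 26 and 24 in synuclein at 12 weeks. The 3 high libraries, replicates 1 and 3 of saline and replicate 1 of synuclein at 12 weeks, gave Rps27 19.2% to 29.1% of the fragments of the pair, against 0.444% to 2.77% in the other 9. Rps27 and Rps27rt together gave 0.12 ± 0.16 (adjusted p = 0.92) for 12 against 7 weeks over both treatments. With copies summed no gene of the family was called in any comparison.

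**Figure D3:**
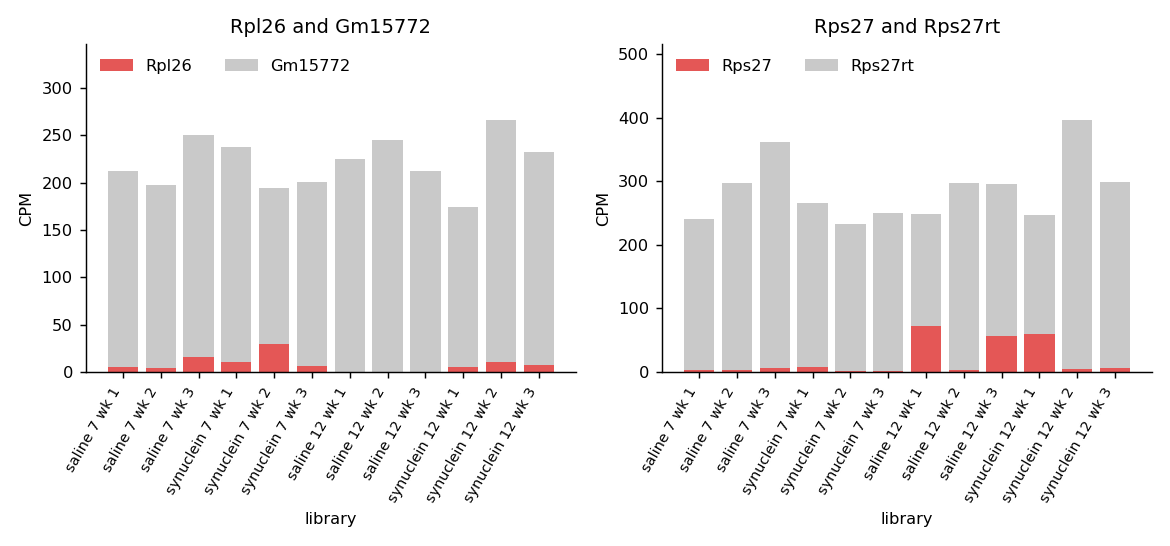
CPM of Rpl26 and Gm15772 (left) and of Rps27 and Rps27rt (right) in each library, stacked from 0. The red part is 0 for Rpl26 in the 3 saline libraries at 12 weeks and large for Rps27 in 3 libraries, while the summed height of these bars lies within the range of the others.

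Both libraries in which the family was highest were also the most deeply sequenced. Replicate 3 of saline at 7 weeks had 5533324 assigned fragments and replicate 2 of synuclein at 12 weeks had 5022491, and the library with the lowest summed level, replicate 3 of synuclein at 7 weeks, had the fewest (2506730). Replicate 2 of saline at 12 weeks had nearly as few (2590172), yet its sum of 20099 CPM was the fourth highest, and the third deepest library, replicate 2 of synuclein at 7 weeks with 4462262 fragments, had 17940 CPM.

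With log2 of the assigned fragments as a term beside the 4 group means, 68 of 76 genes had a slope above 0 (89.5%, against 45.4% of all genes). The median slope was 0.26 per doubling of depth, against −0.09 over all genes. None passed an adjusted p of 0.05 (edgeR, background 0%), and 4 reached an unadjusted p under 0.05, among them Rpl26, Rps6 and Rps9 (background 8.34%). Rps9, at the messenger RNA entry, had 201, 239 and 343 CPM in saline and 226, 286 and 224 CPM in synuclein at 7 weeks, and 233, 254 and 291 CPM and 216, 318 and 250 CPM at 12 weeks, with the deepest library highest in each group and a slope of 0.69 ± 0.22 (adjusted p = 0.53). Rps6, the substrate of S6 kinase downstream of mTOR, had a slope of 0.49 ± 0.23. Without replicate 3 of saline at 7 weeks the median slope was 0.15, and without TMM scaling, which moved the median of all genes by −0.17, it was 0.079.

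**Figure D4:**
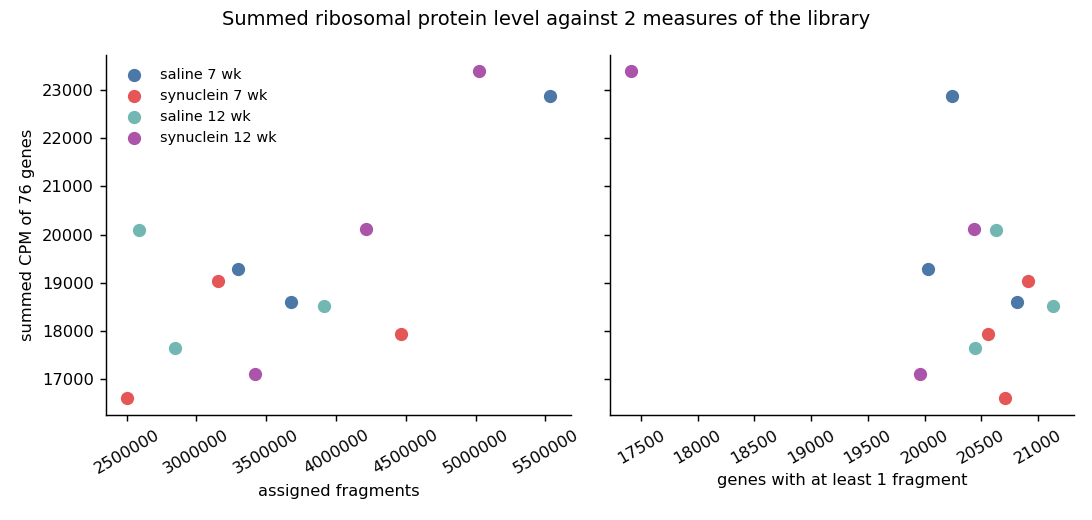
Summed CPM of the 76 genes against assigned fragments (left) and against the number of genes with at least 1 fragment (right), with 1 point per library, coloured by group. The 2 highest libraries are the deepest, and 1 of them, synuclein 12 weeks replicate 2 with 17409 genes, lies apart on the right.

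The group comparisons changed with depth in the model. With depth as a covariate the median of synuclein against saline was −0.11 at 7 weeks, with 62 of 76 genes below 0, and −0.02 at 12 weeks, with 43 below 0. The difference between the times had a median of 0.085 with 24 genes below 0, against 0.31 with 10 below 0 in the model without depth. In saline the median of 12 against 7 weeks became −0.0021, with 38 of 76 genes below 0. Thinning every library to 2506730 fragments left the medians at −0.17 at 7 weeks, 0.09 at 12 weeks and 0.30 for the difference. Random thinning keeps the expected share of every gene in a library, so it bears only on counting noise. The model with depth has 7 residual degrees of freedom. Other properties of a library that go with its depth were not tested.

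The number of genes detected gave the opposite slope to the fragments. Per doubling of genes detected the median slope was −1.40, with 72 of 76 genes below 0, against 0.77 over all genes. Without replicate 2 of synuclein at 12 weeks it was 0.35, with 32 genes below 0, against 0.32 over all genes, so the sign rested on that library.

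The folds of synuclein against saline are given by role as a description, and roles were not tested against each other. The 3 stalk proteins Rplp0, Rplp1 and Rplp2, which recruit elongation factors, had log2 folds of −0.24 ± 0.23, −0.06 ± 0.24 and −0.31 ± 0.23 at 7 weeks and −0.01 ± 0.23, 0.10 ± 0.24 and 0.18 ± 0.23 at 12 weeks. Rpl5 and Rpl11 of the 5S particle had −0.08 ± 0.21 and −0.22 ± 0.27 at 7 weeks and 0.25 ± 0.21 and 0.21 ± 0.27 at 12 weeks. Rps27a, made as a fusion with ubiquitin, had −0.30 ± 0.21 and 0.13 ± 0.21, Rps3, which lines the messenger RNA entry and has a DNA repair role, −0.06 ± 0.21 and 0.21 ± 0.21, and Rps19, the most often mutated gene of Diamond-Blackfan anaemia, −0.22 ± 0.22 and 0.17 ± 0.22. Of 14 genes linked to that anaemia 13 were below 0 at 7 weeks and 13 above 0 at 12 weeks, Rpl26 among the latter, where the whole family had 94.7% below 0 and 76.3% above 0. Each of these values was within 2 SE of 0 save that of Rpl26.

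Genes next to the family in translation were counted from lists chosen for this purpose, and none of their genes passed an adjusted p of 0.05 in either treatment comparison or in the difference. Fau and Rps3a1, which belong to the ribosome but not to the symbol rule, had log2 folds of −0.15 ± 0.21 and −0.28 ± 0.22 at 7 weeks and 0.02 ± 0.21 and 0.41 ± 0.22 at 12 weeks. Of 20 elongation factors and other TOP messenger RNAs, 17 were below 0 at 7 weeks (median −0.16) and 17 above 0 at 12 weeks (median 0.20), with Eef1a1, the most abundant, at −0.17 ± 0.20 and 0.05 ± 0.20. Of 24 initiation factors 19 were below 0 at 7 weeks (median −0.11) and 17 above 0 at 12 weeks (median 0.10). The 42 genes of ribosome biogenesis, which build the subunits in the nucleolus, had medians of 0.02 and 0.05, with 20 below 0 at both times, and Ncl, encoding nucleolin, had 0.11 ± 0.24 and 0.20 ± 0.24. The 21 genes of mTOR and Myc control had medians of −0.02 and 0.22, and the 13 snoRNA host RNAs −0.41 and −0.04. The 11 genes of the p53 checkpoint had −0.10 and 0.22. The 8 rows tested of 11 listed as paralogs of ribosomal proteins or with like symbols had −0.22 and 0.16. They include Rps27rt, which was given most fragments of its pair with Rps27, so this list is not separate from the family.

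Of 4533 genes outside the family with a mean of at least 50 CPM, those whose log2 CPM followed the mean of the family most closely over the 12 libraries included Drg1 (r = 0.95), Eef1b2 (0.94), Cstb, Cox6a1, Spag7, Atp5k, Tmem159, Rap1gds1 and Gmfb (0.89). Eef1b2 encodes an elongation factor, while Cox6a1 and Atp5k encode subunits of mitochondrial enzyme complexes. The 3 lowest were Ndst1 (−0.92), Pigs (−0.89) and E030030I06Rik (−0.88). These genes were picked as the extremes of many over shared libraries, and the values carry no test.

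Markers of other cell types moved with time and with single libraries. The 15 oligodendrocyte markers summed to 19917 to 30971 CPM in the 6 libraries at 7 weeks and 30142 to 54776 CPM in the 6 at 12 weeks, and none was at 0 in a library. The 11 dopaminergic markers tested of 12 listed summed to 732 to 2558 CPM at 7 weeks and 600 to 1143 CPM at 12 weeks, and Foxa2 was the 1 marker at 0 in some library. The 13 microglial markers tested of 14 summed to 131 to 255 CPM in saline and 162 to 695 CPM in synuclein at 7 weeks, with the highest sum in replicate 3 of synuclein, the library in which 31 of the 76 ribosomal protein genes were lowest. At 12 weeks they summed to 146 to 244 CPM in saline and 88.9 to 191 CPM in synuclein. Tmem119, P2ry12, Trem2, Aif1 and Siglech were each at 0 in some synuclein library at 12 weeks. Tmem119 was also at 0 in some saline library at each time, and Trem2 in some saline library at 7 weeks. The 8 markers of pericytes and smooth muscle summed to 999 CPM in replicate 3 of synuclein at 7 weeks and to 125 to 302 CPM in the other 11 libraries. At 7 weeks the endothelial markers reached their highest sum, 36192 CPM, in saline replicate 3, where 72 of the 76 genes lay above their own mean. They summed to 28642 CPM in saline replicate 2 and 28113 CPM in synuclein replicate 2 at 7 weeks, where only 26 and 17 genes did. At 12 weeks the endothelial sums in replicates 1, 2 and 3 were 13665, 19420 and 19480 CPM in saline. In synuclein they were 15635, 24977 and 25364 CPM. The family summed to 17654, 20099 and 18513 CPM and to 17102, 23397 and 20128 CPM in the same libraries. Replicate 1 was lowest in both sums in each 12-week group. In replicate 1 of synuclein at 12 weeks, where 22 of the 76 genes were lowest, the microglial markers summed to 106 CPM. The part of cell composition in the levels of the ribosomal protein genes was not tested.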

How the data were processed

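Per the submitters' processing notes, the tools were TopHat2 2.0.13, Bowtie2 2.2.3 and Cufflinks 2.2.1; their settings and the genome build are not given in the sources used here. The authors deposited estimated counts and FPKM per gene for 12 libraries. Of the 76 gene models, 54 had both ends within 1000 bases of GENCODE M21 (mm10, GRCm38), so coordinates are read as mm10, counted from 1. In each library 98.9% to 99.2% of deposited counts were whole multiples, within 0.02 fragments, of a step of 0.685 to 1.30, which gave the assigned fragments. Of the 76 genes, 72 or 73 were whole in each library, and the others were rounded to whole fragments.

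The counts were rounded and tested with edgeR 4.0.16 (R 4.3.3): filterByExpr (17380 genes), TMM, 1 mean per group over 12 libraries, 8 residual degrees of freedom, a common biological coefficient of variation of 46.6%, and Benjamini-Hochberg adjustment over all genes at 0.05. CPM are TMM-scaled and log2 CPM use a prior count of 2. Errors of log2 folds are SE from this fit, in which estimates of spread are partly shared across genes. FPKM were tested with limma 3.58.1 on log2(FPKM + 1) for genes with a mean of at least 1, as an alternative, as were DESeq2 1.42.0, voom, other scalings, no filter, whole fragments, thinning, depth as a covariate, a replicate block, fewer groups or libraries, and, chosen after seeing the data, copies at 1 locus summed or left out. The fit was also run on simulated data, with folds larger than the family's median folds in any group comparison. That run does not bear on folds as small as those medians, and its outcome is not given here. The family and all lists were chosen with earlier results of these data known. Named were 12 genes fixed by name, the 5 with the smallest p in each comparison, the largest opposite fold and the extremes of level and spread. Genes shown for their sequence, without overlap or by closeness to the family's mean were chosen from the values. Ribosomal protein genes have many processed pseudogenes, and fragments divided with copies elsewhere in the genome were not examined. Some genes the rule names are not reported here.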

Additional observations from a re-analysis of the deposited data

How the results depend on the processing

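Under 25 to 27 alternatives per group comparison, no ribosomal protein gene but Rpl26 and Rps27, which share a locus with a copy, was called in any comparison. For synuclein against saline at 12 weeks 1 gene was called with DESeq2 and 1 with FPKM, against 0, and over both times 1 with DESeq2. For 12 against 7 weeks in saline 1 was called without a filter, with the replicate block, with only the groups compared, without both synuclein 12-week libraries that lie apart and with FPKM, against 0. For 12 against 7 weeks over both treatments, against 1, there were 2 with DESeq2 size factors, with TMM computed without the family, without a filter, with DESeq2, after thinning and with the replicate block, and 0 with voom, without both libraries that lie apart, with copies summed, with the 4 genes left out and with FPKM. Leaving out 1 library gave 0 to 2, with 0 without replicate 3 of saline at 7 weeks, replicate 2 of synuclein at 7 weeks or replicates 1 or 3 of saline at 12 weeks. Over all genes the 145 called there became 449 with DESeq2, 246 with the block and 0 with FPKM or without both libraries. They became 24 to 214 leaving out 1 library, with 24 to 38 without replicates 2 or 3 of saline or 1 or 2 of synuclein at 7 weeks or replicates 1 or 3 of saline or 1 of synuclein at 12 weeks. Rpl26 was called there in 17 of 25 alternatives (adjusted p from 8.5e-05 to 0.96), and its log2 value turned to 0.070 with copies summed, where Gm15772 supplies most fragments. Deviations from group means correlated at −0.06 to 0.11 over 18 same-numbered pairs of libraries, with 1 over 0.1, and differently numbered pairs were not compared. With the replicate block 34 genes were called over all genes for 12 against 7 weeks in saline, against 0. Whether the replicate numbers pair the libraries was not tested further.

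The median of the family ranged, leaving out 1 library at a time, from −0.26 to −0.07 for synuclein against saline at 7 weeks, 0.0051 to 0.29 at 12 weeks, 0.21 to 0.52 for their difference, −0.19 to 0.01 for time in saline, 0.12 to 0.37 for time in synuclein, −0.01 to 0.12 over both treatments, −0.10 to 0.03 for synuclein over both times and 0.15 to 0.38 for the slope on depth. With depth as a covariate the difference was 0.085, against 0.31. The slope was 0.079 without TMM, which moved the median of all genes by −0.17 there and by −0.13 for the difference, and −1.40 on genes detected. Where no construction shows it, the cause was not tested. The median SE from edgeR for a single gene's fold was 0.23 within a time and 0.32 for the difference. For a gene with an SE of 0.23, a fold of 0.1 to 0.3 lies within 2 SE of 0. The SE of a gene does not measure the spread of a median over the family. That SE rests partly on a spread shared across genes. Rps2, with an SD of 0.10 in log2 CPM over the 12 libraries, was given a biological coefficient of variation of 18.8%. Tests on the spread of each gene alone were not run.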
